A study of Ovis aries with 3 samples.

Results

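The miR-29 family is represented by 2 known sheep miRNAs, oar-miR-29a and oar-miR-29b, among 822 entries counted in small RNA of the sheep intestine. The members were found by name, as every entry that begins with oar-miR-29 and a letter, and they stand among 146 known sheep miRNAs and 676 predicted entries. The counts belong to Small tailed Han sheep, in which mucosal epithelial tissue was collected without any treatment at the duodenum (DU), cecum (CE), and colon (CO). RNA of the same 3 ewes aged 11 months was pooled for each segment, which left 1 library per segment and no replicate. Every interval and p-value below therefore covers counting error only, compares libraries rather than segments, and has no replicate check. Over all entries, 14462675 reads were counted for DU, 15072945 for CE, and 13769740 for CO.

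miRNAs of the miR-29 family are known as repressors of extracellular matrix genes. Their targets include fibrillar collagens, elastin, and fibrillin, and TGF-beta signaling lowers miR-29 in many fibrotic tissues. A miRNA finds its targets mostly through its seed, bases 2 to 8 counted from the 5′ end, so members with the same seed share most of their predicted targets. In the intestine, matrix is produced mainly by fibroblasts and smooth muscle cells beneath the epithelium.

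The mature sequences show what the members share and where they part. They are printed 5′ to 3′ as the count files give them, with T in place of U and with the seed in capitals.
oar-miR-29a: tAGCACCAtctgaaatcggtt
oar-miR-29b: tAGCACCAtttgaaatcagtgt
Both carry the seed AGCACCA, whose reverse complement TGGTGCT is the site matched in a target. The first 9 bases are identical. Over the 21 positions that both have, 3 differ, which are C10T, G18A, and T21G from oar-miR-29a to oar-miR-29b, with positions counted from 1 at the 5′ end. The lengths are 21 and 22 nt, and the GC contents are 42.9% and 36.4%. The 3′ part of miR-29b is known for an element that brings it into the nucleus, and it is in this part that 2 of the 3 differences lie. Both members begin with T, as do 320 of the 822 entries (38.9%).

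No predicted entry in the count files had the miR-29 seed at bases 2 to 8. None contained a member or lay within one, and none came within 3 mismatches of a member over at least 16 bases. The study lists further sequences with this seed, and with reads of their own, under cattle names, bta-miR-29c and bta-miR-29d-3p. No entry used here is identical to them and their reads were not analysed here, so all sums below cover the 2 members and not every read with this seed.
bta-miR-29c: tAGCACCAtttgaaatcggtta
bta-miR-29d-3p: tAGCACCAtttgaaatcgatta
These are shown because they differ so little from the members. bta-miR-29c shares its first 17 bases with oar-miR-29b, from which it differs by A18G, G21T, and T22A, while C10T alone separates it from oar-miR-29a over 21 positions. The methods accept a read that aligns to a precursor without mismatch and then has at least 16 matching bases on a mature sequence. The stretch shared by oar-miR-29b and bta-miR-29c is longer than that. A read that runs past this stretch must still match the precursor at the bases that differ. How the reads of such near-identical sequences were divided was not tested.

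In RefSeq, the sheep has 3 loci for these members, MIR29A, MIR29B-1, and MIR29B-2. The count files have a single entry for oar-miR-29b, so reads from MIR29B-1 and MIR29B-2 cannot be told apart. The loci of miR-29b lie on the same chromosome with CD46, a complement regulator, between them, and MIR29A lies on another chromosome with KLF14 among its nearest genes. MIR29A and MIR29B-1 each overlap a long noncoding RNA gene, LOC106991099 and LOC114117256. The RefSeq table describes another assembly than the Oar_v4.0 genome of the study, so no coordinates are given.

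oar-miR-29a was the major member in every library. Its reads numbered 19164 in duodenum, 11893 in cecum, and 12995 in colon. Divided by the reads mapped to the genome and multiplied by 1000000, these are 1145 (exact Poisson 95% interval 1129 to 1162), 699 (687 to 712), and 784 (771 to 798) normalized reads. The DU library was the highest and the CE library the lowest, and no interval reached another. By level, oar-miR-29a held rank 49 of the 499 entries with reads in duodenum, rank 54 of 437 in cecum, and rank 49 of 453 in colon. Its share of all counted reads was 0.133% (Wilson 95% interval 0.131 to 0.134%), 0.0789% (0.0775 to 0.0803%), and 0.0944% (0.0928 to 0.0960%).

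oar-miR-29b took the same order at a much lower level. With 1548 reads in duodenum, 948 in cecum, and 1020 in colon, it reached 92.5 (exact Poisson 95% interval 88.0 to 97.2), 55.7 (52.3 to 59.4), and 61.6 (57.8 to 65.5) normalized reads, respectively. Here the DU library stood clear of the others, whereas the intervals of the CE and CO libraries overlapped. Its ranks among entries with reads were 99, 113, and 114. Summed over the 2 members, the levels were 1238 normalized reads in duodenum, 755 in cecum, and 846 in colon.

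**Figure D1:**
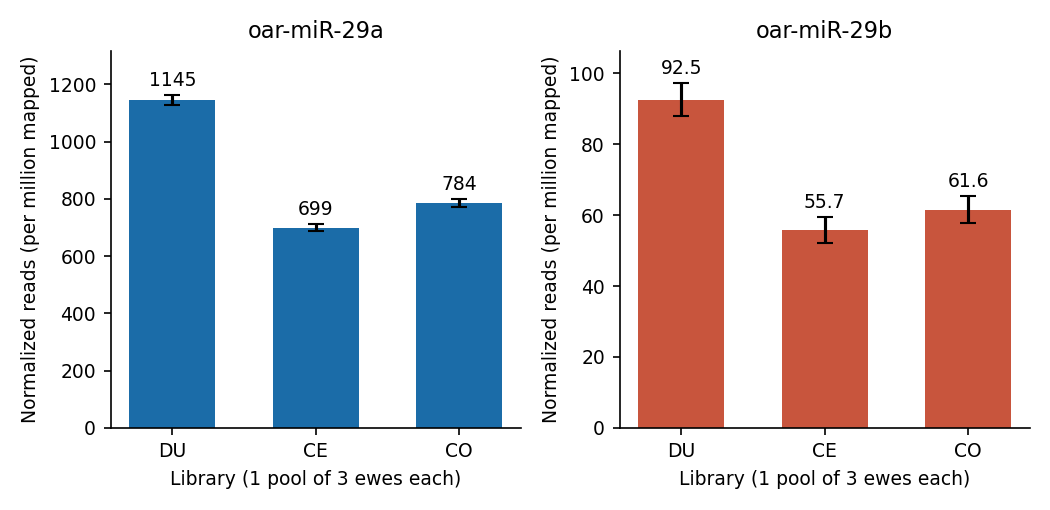
Normalized reads (per 1000000 reads mapped to the genome) of oar-miR-29a (left) and oar-miR-29b (right) by library, with exact Poisson 95% intervals that cover counting error only. Both members were highest in the DU library (1145 and 92.5) and lowest in the CE library (699 and 55.7).

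The first comparison asked how far the duodenum stood from the cecum. The log2 ratio of CE to DU was -0.71 for oar-miR-29a (exact 95% interval -0.74 to -0.68) and -0.73 for oar-miR-29b (-0.85 to -0.61), so that the DU library held 1.64 and 1.66 times the level of the CE library. Both differences were beyond counting error in the exact Audic-Claverie test, the test whose formula the study prints. The Bonferroni-corrected p-value of oar-miR-29b was 3.96e-33 in this exact test, and that of oar-miR-29a was smaller still. Neither reached the fold change of 2 that the study requires for differential expression. The study divides by all clean reads, which gave log2 ratios of -0.63 for oar-miR-29a and -0.65 for oar-miR-29b, also short of it. Among the 348 entries tested, 148 (42.5%) were higher in the DU library beyond counting error and 127 (36.5%) were differentially expressed, 85 of them higher in DU and 42 higher in CE. Known miRNAs with at least 100 reads in each of these libraries numbered 74, of which 10.8% were differentially expressed.

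Against the colon, the differences were smaller. The log2 ratio of CO to DU was -0.55 for oar-miR-29a (exact 95% interval -0.58 to -0.51) and -0.59 for oar-miR-29b (-0.70 to -0.47). The level of oar-miR-29a in duodenum was 1.46 times that in colon (95% interval 1.43 to 1.49), and for oar-miR-29b the 95% interval of this fold was 1.39 to 1.63. The corrected p-values were 3.87e-245 and 7.07e-22 (exact Audic-Claverie test). Again both members were beyond counting error and below a fold change of 2. The background was 37.5% of 363 entries higher in the DU library beyond counting error and 33.9% differentially expressed, or 6.67% of the 75 known miRNAs with at least 100 reads in both libraries.

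Within the large intestine the members differed little. For oar-miR-29a the log2 ratio of CE to CO was -0.17 (exact 95% interval -0.20 to -0.13, corrected p = 4.88e-17), and for oar-miR-29b it was -0.14 (-0.27 to -0.01, corrected p = 1, exact Audic-Claverie test). Only for oar-miR-29a was the CO library higher beyond counting error, at 1.12 times the CE library. Of 326 entries, 26.4% were higher in the CO library beyond counting error and 22.7% differentially expressed, and among the 79 known miRNAs with 100 or more reads in each the share was 1.27%.

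The size of the difference from the duodenum depended on what the reads were divided by. oar-miR-143, a miRNA of smooth muscle and mesenchyme, took 31.9% of the counted reads in the DU library but 48.4% and 48.0% in the CE and CO libraries. Leaving its reads out of the library size was tried as well, a choice made once these values had been seen. The log2 ratio of oar-miR-29a then moved to -0.35 from DU to CE and to -0.10 from DU to CO. For oar-miR-29b the values were -0.37 and -0.14, and the latter was no longer beyond counting error (corrected p = 1, exact Audic-Claverie test). With the TMM method of edgeR, the log2 ratios of oar-miR-29a were -0.59 and -0.39, and those of oar-miR-29b -0.61 and -0.43. In all 6 library sizes tried, both members stayed highest in the DU library and lowest in the CE library. With the mapped reads as library size, the exact test of edgeR was also given a coefficient of variation between libraries of 0.2. That value was assumed, since 1 library per segment gives no spread. No difference of the members then passed the correction (corrected p = 1, exact test of edgeR).

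**Figure D2:**
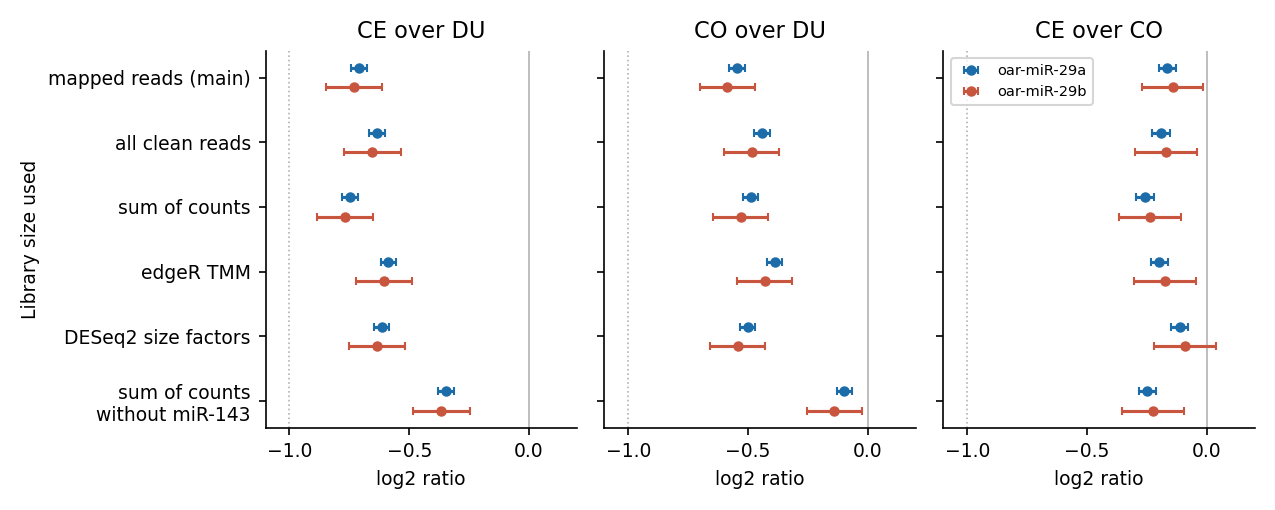
log2 ratios of oar-miR-29a (blue) and oar-miR-29b (red) for CE over DU, CO over DU, and CE over CO under 6 library sizes, with exact 95% counting intervals. The solid line marks no difference and the dotted line a fold change of 2. Every point lies below 0 and none reaches the dotted line, and for CE over DU and CO over DU the points lie closest to 0 when oar-miR-143 is left out.

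The ratio of one member to the other needs no library size. oar-miR-29a had 12.4 reads for each read of oar-miR-29b in duodenum (exact 95% interval 11.8 to 13.0), 12.5 in cecum (11.7 to 13.4), and 12.7 in colon (12.0 to 13.6). In other words, oar-miR-29a made up 92.5%, 92.6%, and 92.7% of the reads of both. The ratio in the CE library was 1.01 times that in the DU library (95% interval 0.931 to 1.10), and the ratio in the CO library was 1.03 times that in the DU library (0.947 to 1.12). Between CO and CE, where only oar-miR-29a had passed the test, the quotient was 0.985 (0.897 to 1.08). None of the 3 quotients differed from 1 beyond counting error (two-sided Fisher's exact test, Benjamini-Hochberg adjusted p = 0.764 for each). The intervals reach from 0.897 to 1.12, whereas oar-miR-29a itself differed 1.64-fold between DU and CE.

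**Figure D3:**
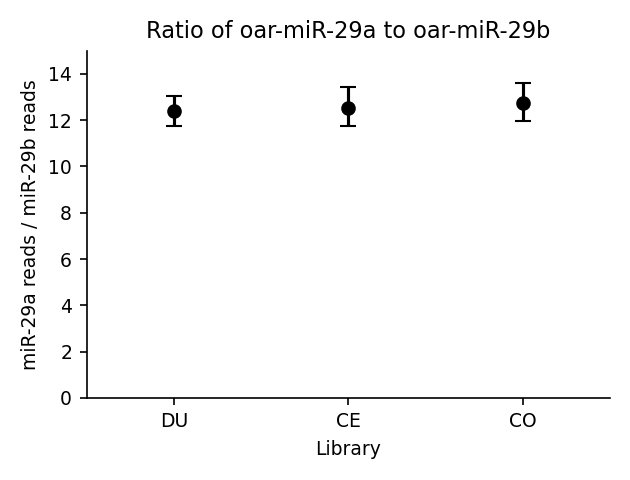
Reads of oar-miR-29a divided by reads of oar-miR-29b by library, with exact 95% intervals. The points lie at 12.4, 12.5, and 12.7, and all 3 intervals overlap.

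A predicted entry, novel_mir_171, is identical to the sequence that the study lists as bta-miR-29d-5p, the opposite arm of a miR-29 hairpin. It is shown since its seed, again in capitals, is not that of the members.
novel_mir_171: tGACCGATttctcctggtgtt
Its reads numbered 154 in duodenum, 113 in cecum, and 117 in colon, or 9.20 (exact Poisson 95% interval 7.81 to 10.8), 6.64 (5.48 to 7.99), and 7.06 (5.84 to 8.46) normalized reads. The order of the libraries was that of the members, but the log2 ratios of CE to DU and CO to DU, -0.47 (exact 95% interval -0.83 to -0.11) and -0.38 (-0.74 to -0.03), did not pass the correction (corrected p = 1 for both, exact Audic-Claverie test). The 2 members had 134 reads for each of its reads in duodenum, 114 in cecum, and 120 in colon. By its name in the study, its partner arm is bta-miR-29d-3p and not a member. These ratios therefore need not compare 2 arms of the same hairpin. No quotient of these ratios between libraries differed from 1 beyond counting error (two-sided Fisher's exact test, lowest adjusted p = 0.528).

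Ranked among other known miRNAs, which does not depend on the library size, the members stood toward the duodenal end. Of the 74 known miRNAs with at least 100 reads in both the DU and CE libraries, 4, with oar-miR-29b among them, had a lower log2 ratio of CE to DU than oar-miR-29a, and 3 were lower than oar-miR-29b, against a median of 0.19. For CO to DU, 9 and 7 of 75 were lower, with a median of 0.09. For CE to CO, 20 and 22 of 79 were lower, with a median of 0.08. Over all entries tested, predicted ones included, the members were less far out, since 124 and 121 of 348 entries had a lower log2 ratio of CE to DU. Which entries were tested does depend on the library size.

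The order DU over CO over CE was also found in 15 of the 72 other known miRNAs with at least 100 reads in every library, and in 8 of the 72 without oar-miR-143 in the library size. Likeness to the summed members was measured as the distance over 2 log2 ratios, CE to DU and CO to DU, which rest on 3 libraries. The nearest was oar-miR-26b (distance 0.0251), whose seed differs and which is known to act on growth factor and cell cycle genes. It is also among the miRNAs listed below for links to matrix or TGF-beta signaling. Its level was 2931 normalized reads in duodenum, 1804 in cecum, and 2033 in colon. The next were oar-miR-25 (0.0363), oar-let-7d (0.163), oar-let-7c (0.166), and then oar-miR-218a. For comparison, oar-miR-29b lay at 0.0422 and oar-miR-29a at 0.0034, as it holds most of the reads of the sum.

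**Figure D4:**
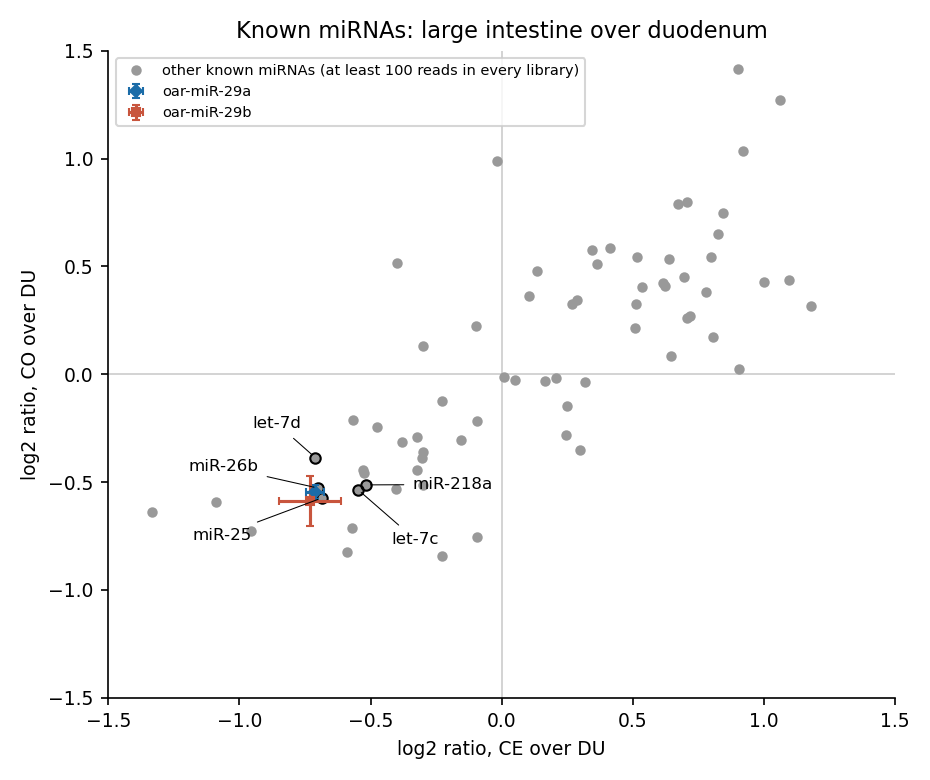
log2 ratios of CE over DU (horizontal) and CO over DU (vertical) for known miRNAs with at least 100 reads in every library, with both members and their exact 95% intervals in color and the 5 nearest miRNAs circled. A further 2 miRNAs lie beyond 1.5 and are not shown. The members sit in the lower left with oar-miR-26b and oar-miR-25 almost on top of them.

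Other miRNAs with textbook links to matrix or TGF-beta signaling went in both directions. Between the DU and CE libraries, 237 of all 348 entries tested were beyond counting error, 148 of them higher in DU. Of 16 listed, 7 were higher in the DU library beyond counting error, another 7 were higher in the CE library, and 2 did not pass. Their median log2 ratio of CE to DU was 0.00, against -0.31 over all entries tested and 0.19 over known miRNAs with at least 100 reads, to which the listed miRNAs belong. Between the DU and CO libraries, 8 listed miRNAs were higher in DU, 7 were higher in CO, and 1 did not pass. Of all 363 entries tested there, 232 were beyond counting error, 136 of them higher in DU. The median of the list was -0.02, against -0.19 over all entries and 0.09 over such known miRNAs. Without oar-miR-143 in the library size, 4 of the list were higher in duodenum and 12 in cecum, and 4 in duodenum and 10 in colon. Entries as a whole moved the same way, to 98 of 453 higher in duodenum against cecum and 85 of 458 against colon. The balance of the list thus depended on the scaling, as did that of all entries. oar-miR-26a, which shares its seed with oar-miR-26b, was higher in the DU library like the members, with 42064 normalized reads against 29260 in cecum and 30630 in colon, though its log2 ratio of CO to DU shrank from -0.46 to -0.01 without oar-miR-143 in the library size. oar-miR-148a was the one listed miRNA that was differentially expressed toward the duodenum against the cecum, at 52980 and 21043 normalized reads, but its log2 ratio ranged from -1.37 to -0.97 over the 6 library sizes and fell short of a fold change of 2 without oar-miR-143. oar-miR-21, which is raised in many fibrotic tissues, stood at 87872 normalized reads in duodenum, 101407 in cecum, and 86754 in colon, and its log2 ratio of CO to DU ranged from -0.02 to 0.43 over the 6 library sizes, so the order of DU and CO turned with the scaling. oar-miR-133, a muscle miRNA that acts on connective tissue growth factor, ran opposite to the members between DU and CE, with 236 and 534 normalized reads and a log2 ratio of 1.18 (1.14 to 1.54 over the 6 library sizes). oar-miR-199a-3p, a miRNA of mesenchymal cells, was lowest in colon, with 1842 normalized reads against 3299 in duodenum and 2819 in cecum.

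The libraries also differed in miRNAs that mark cell types, and all 9 markers had reads in each library, although the tissue is labelled epithelial. Of these, oar-miR-143, oar-miR-133, oar-miR-199a-3p, and oar-miR-200a, b, and c also belong to the listed matrix miRNAs above, so the lists overlap. The 4 epithelial markers (oar-miR-194 and oar-miR-200a, b, and c) summed to 28477 normalized reads in duodenum, 20415 in cecum, and 33447 in colon. Among them oar-miR-194 followed the order of the members, with 9162, 4306, and 6071 normalized reads, while oar-miR-200a, oar-miR-200b, and oar-miR-200c were highest in colon, with log2 ratios of CO to DU of 0.51, 0.99, and 0.13. The 3 markers of smooth muscle and mesenchyme (oar-miR-143, oar-miR-133, and oar-miR-199a-3p) summed to 278817, 432455, and 401375, almost all of it oar-miR-143. The 2 lymphoid markers (oar-miR-150 and oar-miR-181a) summed to 1342, 1003, and 994, with oar-miR-150, a miRNA of mature lymphocytes, at 289, 149, and 175. The lymphoid sum was highest in the DU library, as were the members, except without oar-miR-143 in the library size, where the CO library was the highest (2278, 2194, and 2302). The mesenchymal sum, which is in effect oar-miR-143 alone, was lowest in the DU library under all 6 library sizes. With the mapped reads as library size, its other members did not go the same way. There oar-miR-133 was lowest in duodenum (236, 534, and 294), while oar-miR-199a-3p was highest in duodenum (3299, 2819, and 1842). However, the log2 ratio of CE to DU of oar-miR-199a-3p ranged from -0.26 to 0.14 over the 6 library sizes. Without oar-miR-143 in the library size, all 3 mesenchymal markers were higher in cecum than in duodenum beyond counting error. The part of these markers in the differences of miR-29 was not tested, and in tissue RNA fewer cells of a type and less RNA per cell cannot be told apart.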

How the data were processed

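Small RNA was sequenced in 3 libraries from pooled RNA of 3 ewes. The authors removed adapter, low-quality, and short reads, mapped the clean reads to Oar_v4.0 with SOAP, took known miRNAs from miRBase by BLAST, and predicted others with miReap. The submitters' processing notes name Bowtie. The authors deposited raw read counts per entry, without normalization. Here, counts were divided by the mapped reads that the study states (not the counted reads, which are part of a library) and scaled to 1000000. The formula of the study divides by all clean reads instead, which is among the library sizes tried. The floor of 3 reads equals 0.179 (DU), 0.176 (CE), and 0.181 (CO) normalized reads. The Audic-Claverie test was run on every entry that reached 1 normalized read in one or both libraries, with 2 times the smaller tail and the Bonferroni correction over all such entries. Beyond counting error means a corrected p under 0.01, and differential expression also a fold change of 2 or more. A normalized value of 0 was replaced by 0.01. Quasi-likelihood and permutation tests need replicates and were not used. log2 ratios have exact binomial intervals. The functions were tested on simulated data, where an outcome was required only for counts without spread between libraries. Library sizes came from edgeR 4.0.16 or DESeq2 1.42.0 among the alternatives (SciPy 1.17.1, R 4.3.3). The members, lists, and tests were chosen with earlier results of these data known. The miRNAs named are the members, sequences with their seed, an entry identical to a miR-29 arm of the study, the 5 most alike in pattern, and examples from the lists. oar-miR-143 was singled out as a library size after its values were seen.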

Additional observations from a re-analysis of the deposited data

How the results depend on the processing

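All 102 log2 ratios of the members and of their sum under other settings kept the direction of the main value, and none reached a fold change of 2. Many of them could not differ from the main value. Another test, correction, or filter leaves a log2 ratio as it is, and adding entries with the same seed added none. Only another library size or a read added to both counts changed the value. The sum also largely repeats oar-miR-29a, which holds most of its reads. When the exact test of edgeR was given a biological coefficient of variation (0.2 or 0.4, both assumed), every difference that had been beyond counting error was lost (corrected p = 1), while the log2 ratios stayed at -0.71, -0.73, and -0.71 (CE to DU; oar-miR-29a, oar-miR-29b, and their sum), -0.55, -0.59, and -0.55 (CO to DU), and -0.17 and -0.16 (CE to CO; oar-miR-29a and the sum). The loss follows from the spread that was assumed, as these libraries give none of their own. The log2 ratio of CO to DU of oar-miR-29b went to -0.14 without oar-miR-143 in the library size and was then within counting error. That library size moved every log2 ratio by 0.37 from DU to CE and 0.45 from DU to CO, and TMM moved them by 0.12 and 0.16.

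The number of differentially expressed entries was 127 (DU and CE), 123 (DU and CO), and 74 (CO and CE). It fell to 48, 35, and 15 with at least 10 reads in both libraries. With the assumed coefficient it fell to 38, 40, and 31 (0.4) and to 76, 87, and 61 (0.2). Without oar-miR-143 in the library size, the share of them higher in the DU library went from 66.9% to 44.4% against CE and from 59.4% to 41.1% against CO. Adding nested entries changed no ratio of the members, as there were none. No paired analysis was possible because each segment has 1 library.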
